A study of Mus musculus with 42 samples.

Results

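The 9 genes examined were 3 myogenic basic helix-loop-helix (bHLH) factors (Myod1, Myog, Myf5), 3 MEF2 factors (Mef2a, Mef2c, Mef2d) and 3 ID inhibitors (Id1, Id2, Id3), 9 of 13510 genes with at least 1 polyadenylation site (PAS) in the series. They were chosen by name. A PAS belonged to a gene when it lay on the gene's strand inside its mm9 span or up to 4000 nt downstream, before the next gene, and 54 of 61341 gene-assigned PAS clusters fell in the 9 genes.

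The study used mouse cell lines, labelled strain C57BL/6: C2C12 myoblasts (MB), C2C12 myotubes (MT) made from them in horse serum at confluency, and NIH3T3 embryonic fibroblasts. Cells were untreated (NT), exposed to sodium arsenite (250 µM, 1 h, AS), or left to recover without arsenite (RC) after that hour. C2C12 gave 12 libraries of 3′READS, which sequences RNA 3′ ends and counts reads per PAS. These were total RNA of NT cells (replicates 2 and 3 of MB and of MT) and cytoplasmic RNA of NT cells at 0 h and 4 h, of 1 AS library and of 1 RC library at 4 h (RC4) in each state. NIH3T3 gave 26 3′READS libraries: total RNA (NT and AS, replicates 1, 2 and 4; RC at 4, 8, 12 and 24 h, 1 library each), RNA labelled for 1 h with 50 µM 4-thiouridine (4sU) and its unlabelled flow-through (Ft), and cytoplasmic input and TIA1 immunoprecipitate. Another 4 NIH3T3 libraries were RNA-seq. The study names biological replicates for MB against MT, for AS in NIH3T3 total RNA and for TIA1. It also lists the NT libraries of C2C12 cytoplasm and of 4sU and Ft RNA as replicates 1 and 2. Neither it nor the labels say whether NT libraries at 0 h and 4 h came from separate cultures. This holds for C2C12 cytoplasm and for NIH3T3 4sU and Ft RNA, and p-values for gene levels measure the spread between these libraries.

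MyoD, myogenin and Myf5 bind E-box DNA as dimers with E proteins and switch on muscle genes. MEF2 proteins are MADS-box factors that act together with them. ID proteins have the helix-loop-helix but no DNA-binding region, so that they hold E proteins in inactive dimers, and they are known for keeping myoblasts undifferentiated.

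Depth was 1649925 to 4429624 PAS reads per C2C12 library and 1048335 to 6974664 over all 38 3′READS libraries. The tables list no cluster below 5 reads, so a gene or site given as 0 may have had a few reads. Levels are reads per 1000000 after scaling by trimmed mean of M values (TMM), written as normalized RPM. The labelled states were checked against markers. The 6 myotube genes summed to 73.9 to 354 normalized RPM in the MB libraries and 14216 to 22841 in the MT libraries. Of 5 fibroblast markers, Thy1 and Pdgfra were at 0 in all C2C12 libraries. The other 3 were listed in each of them and summed to 288 and 308 normalized RPM in MB total RNA, 1114 and 1166 in MT total RNA, 206 and 143 in NT MB cytoplasm and 1023 and 1003 in NT MT cytoplasm. In the 26 NIH3T3 libraries, which had all 5 markers, the sum was 468 to 3855. This sum was thus higher in MT than in MB, as some members were, and its part in the members' differences was not tested. The muscle lineage markers with a PAS (Des, Chrna1 and Myod1, itself a member) were at 0 in all 26 NIH3T3 libraries. In bulk RNA, fewer cells of a type and less RNA per cell cannot be told apart.

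The 3′ ends on which the results turn are shown as the 30 bases that end at the listed PAS position, on the gene's strand, from the mm9 (NCBIM37) genome. Capitals mark the poly(A) signals AATAAA and ATTAAA.
Myog, chr1:136189098-136189127, plus strand: aaaaatgAATAAAgactggttgctatcaga
Mef2a proximal, chr7:74378324-74378353, minus strand: tgtgtacataaatagcaaagtggcaagaaa
Mef2a proximal, chr7:74378277-74378306, minus strand: ctgcataaatataaaatgtgttgtaacaga
Mef2a distal, chr7:74376199-74376228, minus strand: aaccttttaagaaaaataagttaatctcaa
Mef2a distal, chr7:74376133-74376162, minus strand: AATAAAtattatagtgaagtttttatcaaa
Mef2a distal, chr7:74376051-74376080, minus strand: tccagtaaagatggcctggctttgaccata
Mef2c proximal, chr13:83805919-83805948, plus strand: ttgaaccttcAATAAAggctgttgcctaaa
Mef2c distal, chr13:83806654-83806683, plus strand: attcagtaaagttactggctttcttagtga
Id2 proximal, chr12:25778800-25778829, minus strand: atacaaAATAAAtcaagtgtgtttattgaa
Id2 distal, chr12:25778664-25778693, minus strand: aagattatAATAAAatgtgtctgacatcaa
Id3 proximal, chr4:135701244-135701273, plus strand: gatgtatATTAAActttttataaaagttaa
Id3 distal, chr4:135701273-135701302, plus strand: acattttgcatAATAAAccatttttgaaca

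All of these sites lie in or within a few bases of the last exon, in the 3′UTR. Searched on the gene's strand in the same 30-base window, AATAAA was present at 32.97% of the 61341 PASs, ATTAAA without AATAAA at 12.58% and neither at 54.45%. Both Id2 sites held AATAAA, while Id3 held ATTAAA at the proximal and AATAAA at the distal site. At the 5 Mef2a sites shown, 1 distal window held AATAAA and the other windows held neither signal.

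Differentiation was examined first, by comparing MT with MB cells in total RNA. Of the 9 genes, 5 were higher in MT (Myod1, Myog, Mef2a, Mef2c, Mef2d), 3 were lower (Id1, Id2, Id3) and Myf5 was not called. In all, 61.3% of 10159 genes tested were called, 32.1% higher and 29.2% lower, so a call alone was common here. Where the MB and MT libraries of a gene are said not to overlap, the share of all genes without overlap was not counted. The median log2 fold change of the 9 genes was 0.76, and that of all genes 0.03. Tests were edgeR quasi-likelihood tests with Benjamini-Hochberg adjustment over all genes tested, and a call is an adjusted p under 0.05.

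Myod1 (chr7:53631844-53634462, plus strand), the determination factor that can convert fibroblasts to muscle, was at 9.75 and 8.32 normalized RPM in the MB libraries and 40.9 and 38.4 in the MT libraries. The groups did not overlap, and Myod1 was higher in MT by 2.15 ± 0.20 (SE) on the log2 scale (adjusted p 2.69e-07). All 854 reads of Myod1 in C2C12 ended at 1 PAS.

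Myog (chr1:136186581-136189124, plus strand) encodes myogenin, which drives terminal differentiation. It was not listed in any of the 6 MB libraries and stood at 1159 and 1289 normalized RPM in MT total RNA. With 5 reads per library, the smallest listed value, as the floor for MB, Myog was at least 918-fold higher in MT. The site shown above held 99.43% of its 15153 reads.

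Myf5 (chr10:106919964-106923190, minus strand), an early determination factor, was at 18.6 and 24.3 normalized RPM in MB and 15.8 and 16.3 in MT. The groups did not overlap, but the difference of -0.42 ± 0.21 (SE) did not pass the test (adjusted p 0.102). It passed when the MB replicate 2 library was left out (adjusted p 0.042) and with library totals in place of TMM (adjusted p 0.0365). Thus, Myod1 and Myog were called higher in MT and Myf5 was not.

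Mef2a (chr7:74376049-74517744, minus strand), a broadly expressed MEF2 factor, was at 87.5 and 85.1 normalized RPM in MB and 554 and 524 in MT. It was higher in MT by 2.65 ± 0.10 (SE) on the log2 scale (adjusted p 1.28e-11), a 6.28-fold difference.

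Mef2c (chr13:83643033-83806684, plus strand), the MEF2 factor known for its rise in differentiating muscle, was not listed in the total RNA libraries of MB and was at 624 and 568 normalized RPM in MT. Against the same floor of 5 reads per library, Mef2c was at least 447-fold higher in MT.

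Mef2d (chr3:87946294-87976008, plus strand), a MEF2 factor expressed already in myoblasts, showed the smallest difference of the MEF2 genes. It was at 41.7 and 41.4 normalized RPM in MB and 78.5 and 62.0 in MT, and was higher by 0.76 ± 0.15 (SE) on the log2 scale (adjusted p 0.000462).

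The 3 ID genes fell by unequal amounts. Id1 (chr2:152561987-152563146, plus strand) was at 119 and 94.4 normalized RPM in MB and 44.5 and 34.6 in MT. Id2 (chr12:25778666-25780957, minus strand) was at 160 and 127 in MB and 19.1 and 16.6 in MT. Id3 (chr4:135699412-135701670, plus strand) was at 1579 and 1278 in MB and 49.8 and 48.3 in MT. In each gene, both MB libraries lay above both MT libraries. On the log2 scale the differences were -1.43 ± 0.16 (SE) for Id1 (adjusted p 1.8e-06), -3.00 ± 0.16 for Id2 (adjusted p 5.98e-10) and -4.86 ± 0.13 for Id3 (adjusted p 2.07e-13). The folds were 2.69, 7.99 and 28.9, that of Id3 being the largest fall among the 9 genes.

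**Figure D1:**
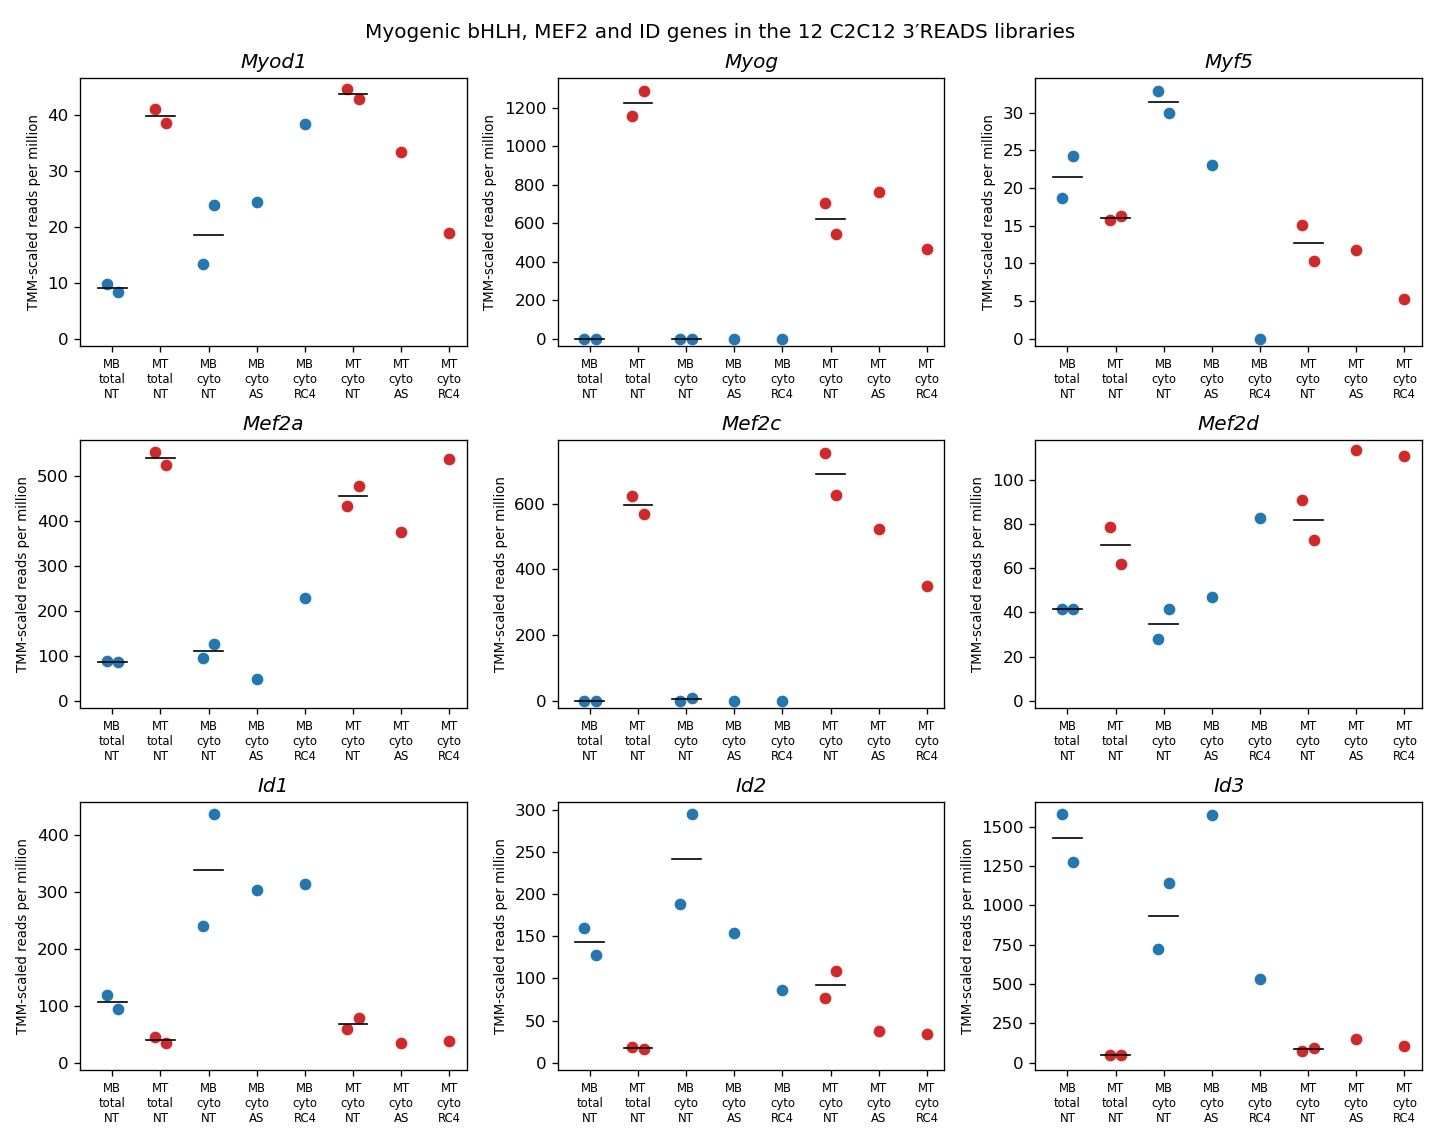
Normalized RPM (TMM-scaled reads per 1000000, y axis, separate scale per gene) of the 9 genes in the 12 C2C12 libraries, with MB in blue, MT in red, 1 point per library and a bar at the mean of 2 libraries. Myog is at 0 in all 6 MB libraries, and Id3 falls from 1579 and 1278 in MB to 49.8 and 48.3 in MT total RNA.

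Cytoplasmic RNA of NT cells, from other libraries, was compared in the same way. All 9 genes were called, 5 higher and 4 lower in MT, where 26.8% of 8871 genes were called, 16% higher and 10.8% lower. Myog was not listed in either MB library and was at 704 and 542 normalized RPM in MT, at least 181-fold higher. Mef2c was listed in 1 of the MB libraries, with 12 reads (8.16 normalized RPM at 4 h), against 756 and 626 in MT. Mef2a was at 95.1 and 125 in MB and 434 and 478 in MT, a log2 difference of 2.02 ± 0.21 (SE, adjusted p 0.00137). Both MT libraries lay above both MB libraries for all 3.

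Among the ID genes, Id3 was at 724 and 1146 normalized RPM in MB cytoplasm and 71.7 and 96.1 in MT (-3.50 ± 0.29, SE, adjusted p 0.000669). Id1 was at 240 and 438 in MB and 58.7 and 79.0 in MT (-2.32 ± 0.33, adjusted p 0.00414). Id2 was at 188 and 295 in MB and 76.2 and 109 in MT (-1.41 ± 0.29, adjusted p 0.0144). The MB libraries stood above the MT libraries for all 3 genes.

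The other calls in the cytoplasm were closer to the threshold. Myod1 was at 13.3 and 23.8 normalized RPM in MB and 44.6 and 42.7 in MT (1.20 ± 0.34, SE, adjusted p 0.0397). Myf5 was at 32.9 and 29.9 in MB and 15.0 and 10.2 in MT (-1.34 ± 0.34, adjusted p 0.0293). Mef2d was at 28.0 and 41.5 in MB and 90.8 and 72.6 in MT (1.20 ± 0.28, adjusted p 0.0211). None of these groups overlapped, but the share of all genes without overlap was not counted. Without the MT library at 0 h, the adjusted p was 0.137 for Myod1, 0.0663 for Myf5, 0.114 for Mef2d and 0.0525 for Id2, and 900 genes were called in place of 2377. Without the MT library at 4 h, Myod1 (0.0953) and Myf5 (0.214) were not called either, and 1074 genes were. Without the MB library at 0 h, 3859 genes were called and Myod1 was not (0.0572). By DESeq2, Myod1 (0.125) and Myf5 (0.121) were not called.

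Genes around the 9 in the same pathway were counted from lists. Of all genes tested, 61.3% were called in total RNA, 32.1% higher and 29.2% lower, and 26.8% were called in cytoplasm. Of 23 muscle genes downstream of myogenic regulators and MEF2, 21 were tested and 21 were higher in MT total RNA. Actc1 (cardiac actin), Myh3 (embryonic myosin heavy chain) and Tmem8c (the myoblast fusion protein myomaker) were not listed in the MB libraries and stood at 1973 and 2042, 1671 and 1621, and 1370 and 1422 normalized RPM in the MT libraries. All 3 E proteins, the dimer partners of MyoD and the targets of ID proteins, were called in total RNA. Tcf4 (0.97 ± 0.11, SE) and Tcf12 (0.43 ± 0.11) were higher and Tcf3 (-0.72 ± 0.11) was lower in MT. In cytoplasm Tcf4 (1.37 ± 0.21) was higher and Tcf3 (-0.85 ± 0.20) lower, whereas Tcf12 was at -0.31 ± 0.29 and not called.

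Of 12 other myogenic regulators, 5 were tested, with 3 higher and 1 lower in MT total RNA. Twist2, a bHLH repressor, fell (-2.62 ± 0.20, SE), whereas Hes6 (2.29 ± 0.12) and Bhlhe41 (2.12 ± 0.14), both bHLH factors, rose. Among 10 MEF2 corepressors and cofactors, 9 were tested, 6 were higher and none was lower, with a median of 0.36. Of all genes, 61.3% were called in the same comparison, 32.1% higher and 29.2% lower. Mamstr, a MEF2 coactivator, had 25 and 31 reads in MT and Hdac9, a class IIa deacetylase, 19 and 17, and neither was listed in MB. Vgll2 was higher as well (3.15 ± 0.62, SE), from 0 and 8 reads in MB to 30 and 44 in MT. None of the 6 members of this list tested in the cytoplasm was called, where 26.8% of all genes were.

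Of 13 BMP and TGF-beta signalling genes, which act upstream of the ID genes, 10 were tested, with 2 higher, 2 lower, 6 not called and a median log2 fold change of -0.01. For this list and the next, the shares of all genes called were 61.3% in total RNA and 26.8% in cytoplasm. Smad6, an inhibitory SMAD (-1.20 ± 0.32, SE), and the receptor Tgfbr1 (-0.79 ± 0.18) were lower, and the BMP receptor Acvr1 was higher (0.48 ± 0.13). In cytoplasm 7 of these genes were tested and 1, the ligand gene Tgfb1, was called, higher at 0.97 ± 0.26 (SE), against -0.20 ± 0.13 and not called in total RNA. Tgfbr1 (-0.37 ± 0.31) and Acvr1 (0.64 ± 0.23) were not called in cytoplasm. Of 10 genes of cell cycle exit, 5 were higher and 5 lower. Cdkn1a, the inhibitor p21, rose by 3.26 ± 0.09 (SE) and Mki67, a proliferation marker, fell by 2.69 (SE 0.15) on the log2 scale, while the cyclin gene Ccnd1 went from 47.0 and 46.8 normalized RPM to not listed. In cytoplasm Ccnd1 was listed in both MT libraries and was lower by 5.55-fold (-2.47 ± 0.41, SE).

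The genes most alike in pattern to each of the 9 over the 12 C2C12 libraries were found by Pearson's r of log2 normalized RPM among 7698 genes. For Myog these were Filip1, Myh7 and Gm7325 (r of 0.9997 or more), and for Mef2c they were Sema6a (0.9987), Sntb1 (0.9975) and Rb1 (0.9879). Id3 was most like Cdc20 (0.9923), Chd1l (0.9875) and Mre11a (0.9815), Id1 was most like Dlx2 (0.9882), Rps19bp1 (0.9757) and Mrpl20 (0.9693), and Id2 was most like Slc25a24 (0.9601), Lsm6 (0.9577) and Accn1 (0.9552). Mef2a was most like Glrb (0.9662), H2-Ke6 (0.9625) and Hist2h2aa2 (0.962), and Mef2d was most like Eif2c2 (0.964), Sulf2 (0.9581) and D18Ertd653e (0.9569). For Myf5 they were Zbed3 (0.9729), Ints5 (0.9567) and Usp21 (0.9547). Myod1 had no gene above 0.91, and the closest were Aif1l (0.9069), Mcpt8 (0.9049) and Atp6v1e1 (0.8995). The 12 points share the contrast of MB and MT, so these values describe the libraries only.

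Arsenite stress and recovery were then examined in C2C12 cytoplasm, with MB and MT as blocks and 1 AS and 1 RC4 library in each state. None of the 9 genes was called after AS, where edgeR called 0.46% of 9557 genes, 0.429% higher and 0.0314% lower. At an unadjusted edgeR p under 0.05 there were 2, Id2 and Id3, where 1084 of the 9557 genes were. DESeq2 called 1, Id2, where it called 199 of all genes. After RC4, 1 of 9 was called, Id2, which fell, where 8.73% of genes were called, 4.74% higher and 3.99% lower. Id2, Myf5, Mef2d and Mef2a were at an unadjusted edgeR p under 0.05, where 2167 of the 9557 genes were. The median log2 fold change of the 9 was -0.32 after AS and -0.44 after RC4, and of all genes 0.03 and -0.04. Under library totals the median of all genes after RC4 was -0.30, with 278 genes higher and 644 lower in place of 453 and 381.

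Id2 was at 188 and 295 normalized RPM in NT MB cells, 154 after AS and 86.2 after RC4. In MT cells it was at 76.2 and 109, then 38.1 and 34.6. All treated libraries lay below both NT libraries of their state. Here and later, where treated libraries are said to lie above or below NT libraries, the share of all genes doing so was not counted. The log2 difference was -0.95 ± 0.26 (SE, adjusted p 0.196 by edgeR and 0.0306 by DESeq2) after AS and -1.47 ± 0.27 (adjusted p 0.0106) after RC4. The RC4 call was lost without the MB RC4 library (edgeR adjusted p 0.122) or the MT RC4 library (0.0504), with 326 and 512 genes called in place of 834.

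Id3 was at 724 and 1146 normalized RPM in NT MB cells, 1574 after AS and 534 after RC4. In MT it was at 71.7 and 96.1, then 152 and 108. Both AS libraries were above the NT libraries, whereas RC4 was below them in MB and above them in MT. Neither difference passed the test (0.77 ± 0.28, SE, adjusted p 0.342 after AS and -0.22 ± 0.30, adjusted p 0.732 after RC4). Id1 was at 240 and 438 in NT MB cells, 303 after AS and 315 after RC4, and at 58.7 and 79.0, then 34.2 and 37.9, in MT (adjusted p 0.509 and 0.411).

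Among the bHLH factors, Myf5 was at 32.9 and 29.9 normalized RPM in NT MB cells, 23.1 after AS and not listed after RC4, at least 9.2-fold lower against the floor of 5 reads. In MT it was at 15.0 and 10.2, then 11.8 and 5.21, the last from 11 reads. The RC4 difference had an adjusted p of 0.0655 by edgeR and 0.0185 by DESeq2, and of 0.00688 without the MT RC4 library. Myod1 was at 13.3 and 23.8 in NT MB cells, 24.4 after AS and 38.3 after RC4, and at 44.6 and 42.7, then 33.4 and 18.9, in MT (adjusted p 0.961 and 0.967). Its RC4 libraries thus stood above NT in MB and below NT in MT. Myog in MT was at 704 and 542, 761 after AS and 467 after RC4 (adjusted p 0.775 and 0.44).

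The difference in response between MB and MT was tested as an interaction in edgeR, and 0 genes were called for AS and 0 for RC4 (589 and 888 genes at an unadjusted p under 0.05, with 1 and 12 called by DESeq2). For Myod1 at RC4 it was -2.28 ± 0.58 (SE), with an unadjusted p of 0.00722 and an adjusted p of 0.499 by edgeR. For Myf5 the unadjusted p was 0.00295 and the edgeR adjusted p 0.499. Without the MB NT library at 4 h, the edgeR adjusted p was 0.0202 for Myod1 and 0.0402 for Myf5, and 151 genes were called. Without the MB NT library at 0 h, 91 genes were called.

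The MEF2 genes did not pass the test at either time. Mef2a was at 95.1 and 125 normalized RPM in NT MB cells, 47.5 after AS and 228 after RC4, and at 434 and 478, then 376 and 537, in MT (adjusted p 0.47 and 0.22). In both states, its AS library was below and its RC4 library above the NT libraries. Mef2c in MT was at 756 and 626, 525 after AS and 351 after RC4 (adjusted p 0.729 and 0.27). Mef2d was at 28.0 and 41.5 in MB, 47.0 after AS and 82.8 after RC4, and at 90.8 and 72.6, then 114 and 111, in MT (adjusted p 0.564 and 0.082). Its treated libraries were above the NT libraries in both states.

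Marker sums also differed between these libraries, not all in the same way. The 6 myotube markers summed to 20872 and 22841 normalized RPM in NT MT cytoplasm, 17165 after AS and 14216 after RC4. The 5 markers of proliferating myoblasts summed to 1533 and 1081 in NT MB cytoplasm, 1491 after AS and 741 after RC4. The fibroblast markers, of which 3 of 5 were listed, summed to 1023 and 1003 in NT MT cytoplasm, 2870 after AS and 1775 after RC4. In MB cytoplasm the sum was 206 and 143 in NT cells, 242 after AS and 129 after RC4. Their part in the members' values was not tested.

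**Figure D2:**
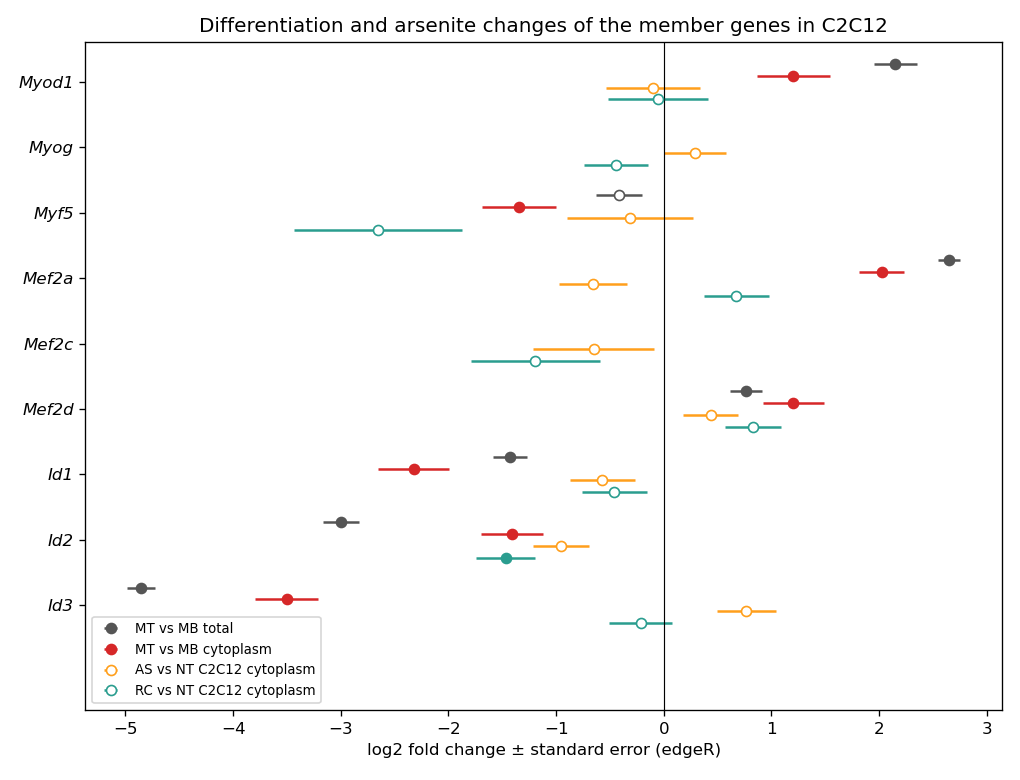
Log2 fold change with standard error (x axis, edgeR) of the 9 genes for MT against MB and for AS and RC4 against NT in C2C12, filled where the adjusted p is under 0.05. Myog and Mef2c are left out of the MT and MB comparisons because MB libraries hold few or no reads, and Id2 at -1.47 is the only filled point among the AS and RC4 comparisons.

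Alternative polyadenylation (APA) was measured as the share of the distal PAS (dPAS) over both main sites of a 3′UTR, the proximal PAS being the pPAS. A gene was called where Fisher's exact test gave a p under 0.05 and the share moved by over 5 points, in the same direction in both pairs. This test counts reads, so its p covers counting error and not the spread between libraries. In C2C12 stress, a pair was the AS or RC4 library against the summed NT libraries of its state, so that AS and RC4 share their controls. After RC4, both Id2 and Id3 were shortened in MB and in MT, 2 of the 3 members with enough reads, where 14.6% of 2011 genes were shortened and 0.448% lengthened. After AS Id3 alone was shortened, where 2.93% of 2388 genes were shortened and 0.503% lengthened. With each treated library set against the NT library of its own time only, an alternative chosen after seeing the data, Id2 and Id3 were again shortened at RC4 and no member was called after AS. Between MT and MB, no member was called in total RNA (9% of 3168 genes lengthened and 3.31% shortened) or in cytoplasm (6.39% of 1877 genes lengthened and 2.08% shortened). In each of these comparisons the members with enough reads were Mef2a, Id2 and Id3.

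The Id2 sites lie 136 nt apart. In MB the dPAS held 71.8% (Wilson 95% confidence interval 66.1 to 76.8%) and 91.2% (88.2 to 93.6%) of reads at both sites in NT cells, 65.6% (60.3 to 70.5%) after AS and 53.0% (44.0 to 61.8%) after RC4. In MT it held 72.4% (64.8 to 78.9%) and 80.0% (74.7 to 84.4%) in NT cells, 78.4% (69.2 to 85.4%) after AS and 52.1% (40.8 to 63.1%) after RC4. Such intervals, and the Fisher's exact p-values, cover counting error only. The RC4 shares were below both NT shares in each state, and the RC4 intervals did not overlap the NT intervals. The intervals of the MB NT libraries did not overlap each other either. The relative expression difference (RED, the change in log2 of dPAS over pPAS reads) after RC4 was -2.20 in MB (Fisher's exact p 2.28e-12) and -1.64 in MT (2.23e-05). After AS the p was 1.51e-10 in MB and 0.893 in MT. Against the NT library at 0 h alone it was 0.113 in MB, where the AS and NT intervals overlap, and 0.301 in MT, so that the MB value rests on the 4 h library.

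The Id3 sites lie 29 nt apart, just beyond the 24 nt within which sites were clustered. Its dPAS share in MB was 81.5% (79.0 to 83.7%) and 88.6% (86.9 to 90%) in NT cells, 78.1% (76.7 to 79.4%) after AS and 65.3% (61.9 to 68.6%) after RC4. In MT it was 85.3% (78.6 to 90.2%) and 88.0% (83.1 to 91.6%), then 76.7% (72.3 to 80.7%) and 75.1% (69.1 to 80.3%). All 4 treated libraries were below the NT libraries of their state, by the widest margin in MB at RC4. RED was -0.77 and -1.01 after AS (Fisher's exact p 4.34e-15 in MB and 0.000325 in MT) and -1.69 and -1.14 after RC4 (2.74e-34 and 0.000367). The AS call was lost when a change of over 10 points was asked for. It was also lost against the NT libraries at 0 h alone, where the MB share differed by -3.37 points (Fisher's exact p 0.0215) and the MT share by -8.57 points (0.031), so that the call in MB rests on the 4 h library.

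**Figure D3:**
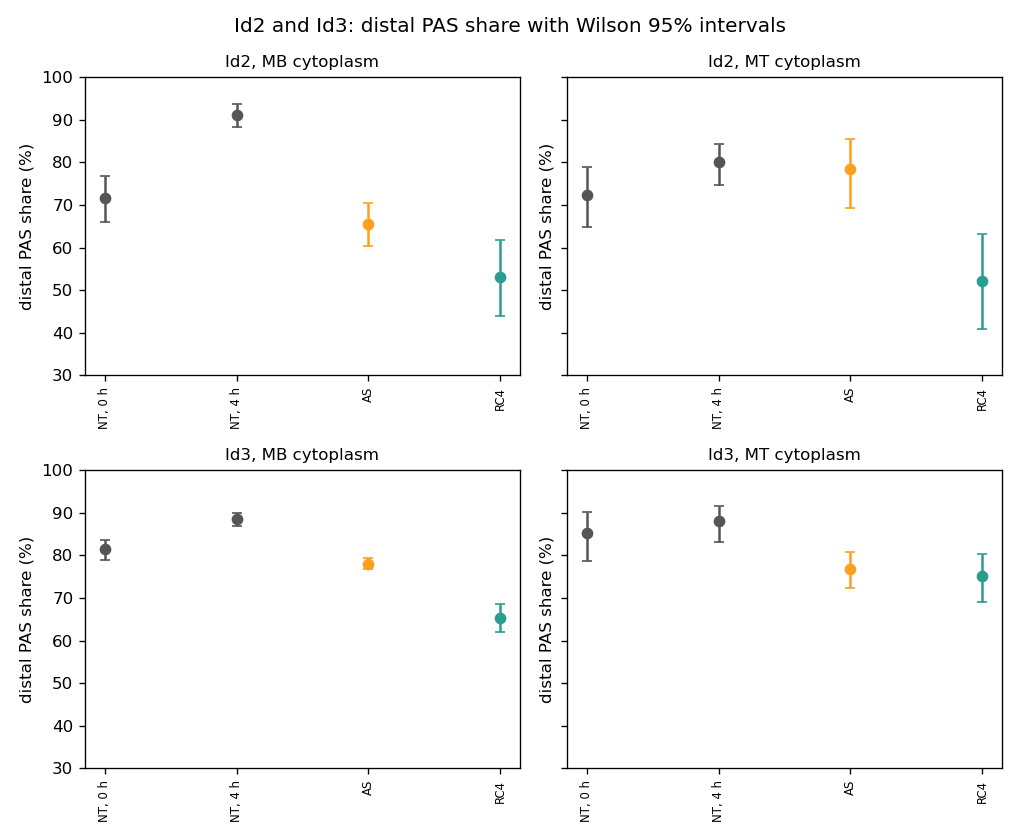
Share of reads at the distal PAS (y axis, percent, from 30) of Id2 and Id3 in the cytoplasm of MB and MT, for NT at 0 h and 4 h, AS and RC4, with 1 point per library and Wilson 95% confidence intervals. The RC4 point is the lowest of its panel for Id2 (53.0% and 52.1%) and for Id3 (65.3% and 75.1%).

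In NIH3T3 total RNA no member was called after AS, where 2.65% of 2828 genes were shortened and 0.743% lengthened. The members with enough reads there were Mef2a, Mef2c, Id1 and Id3, so that Id2 was not tested. For Id3 the dPAS share went from 84.8 to 82.3% in pair 1 (Fisher's exact p 0.298) and from 94.5 to 86.5% in pair 2 (8.58e-07). In 4sU RNA the Id3 share was 89.8 and 88.7% in NT cells, 85.6% after AS and 82.8% after RC4, and in Ft RNA it was 89.4 and 90.7%, then 85.1 and 86.2%. For Id2 the shares were 79.5 and 78.9% in 4sU NT libraries, 65.0% after AS and 72.2% after RC4. The AS and RC4 shares given here for Id3 (total, 4sU and Ft RNA) and Id2 (4sU RNA) were below those of NT. In cytoplasmic input AS libraries were lower in pair 1 and higher in pair 2, for Id3 from 88.3 to 86.8% and from 82.5 to 83.4%, and for Id2 from 79.8 to 65.7% and from 52.2 to 57.6%. Id2 in NIH3T3 total RNA differed between replicate numbers, with 100% in NT replicates 1 and 2 (51 and 41 reads) and 42.1% (33.7 to 51.1%) in NT replicate 4. A proximal site under 5 reads would not be listed, so the shares of 100% may be too high.

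Mef2a has several sites far apart in its 3′UTR, and the 3 most used in C2C12 all lie at its distal end. With both main sites taken as for other genes, Mef2a was not called in any comparison. With the outermost of its more used sites instead, it was called lengthened in MT against MB, with a RED of 0.91 in total RNA and 0.86 in cytoplasm. In C2C12 the main proximal site, with 5.78% of reads, was left out of this choice. The pair was thus 74376199 and 74376051, 148 nt apart and both at the distal end. Its proximal sites, 6 clusters in a stretch of 386 nt, lie 2078 nt or more upstream of the 3 distal ones. These groups of sites were formed after their values were seen, so that the shares of the proximal group are a description with no test. In MB cytoplasm the proximal sites had 13 and 0 reads in NT cells, 25 after AS and 171 after RC4, with 123, 184, 80 and 162 distal reads. The proximal share was thus 9.56% (Wilson 95% confidence interval 5.7 to 15.7%) and 0% (0 to 2.0%, sites under 5 reads not being listed) in NT cells, 23.8% (16.7 to 32.8%) after AS and 51.4% (46.0 to 56.7%) after RC4. The intervals count listed reads only, and each of the 6 proximal sites may hold unlisted reads below 5.

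In MT cytoplasm the proximal share of Mef2a was 7.28% (5.7 to 9.2%) and 6.16% (4.9 to 7.7%) in NT cells, 5.94% (4.6 to 7.6%) after AS and 35.2% (32.5 to 38.1%) after RC4. Counting listed reads only, the RC4 intervals lay above those of the NT libraries in both states. Proximal reads went from 31.6 and 29.5 to 187 normalized RPM between NT and RC4 in MT, while distal reads were at 402 and 449 in NT cells and 344 after RC4. In MB, distal reads were at 86.1 and 125 in NT cells and 111 after RC4. Distal reads at RC4 were thus below both NT libraries in MT and between them in MB, and proximal reads were above them in both. In total RNA of NT cells the proximal share was 8.45 and 11.2% in MB and 3.21 and 3.35% in MT.

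The same sites were used in NIH3T3 cells. In total RNA the Mef2a proximal share was 25.0, 15.6 and 16.1% in NT replicates 1, 2 and 4 and 47.4, 33.2 and 41.7% in the AS replicates, the last from 12 reads. After recovery it was 38.8% (32.7 to 45.4%) at 4 h, 21.6% (13.8 to 32.3%) at 8 h, 26.5% (17.4 to 38%) at 12 h and 0% (0 to 10.2%) of 34 reads at 24 h. The interval at 24 h likewise leaves out reads at sites under 5 reads. Each AS library was above the NT library of its number. In 4sU RNA the share was 12.8 and 16.3% in NT cells, 33.7% after AS and 39.4% (36.5 to 42.3%) after RC4, and in Ft RNA 13.4 and 10.3%, then 23.6% and 41.0% (36.6 to 45.5%). Both fractions had their highest share at RC4. In cytoplasmic input the share was 29.5 and 30.8% in NT and 39.5 and 31.7% in AS libraries, and in TIA1 immunoprecipitate 21.7 and 16.4%, then 40.7 and 34.9%. In input of number 2 the shares of both libraries were within each other's intervals.

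**Figure D4:**
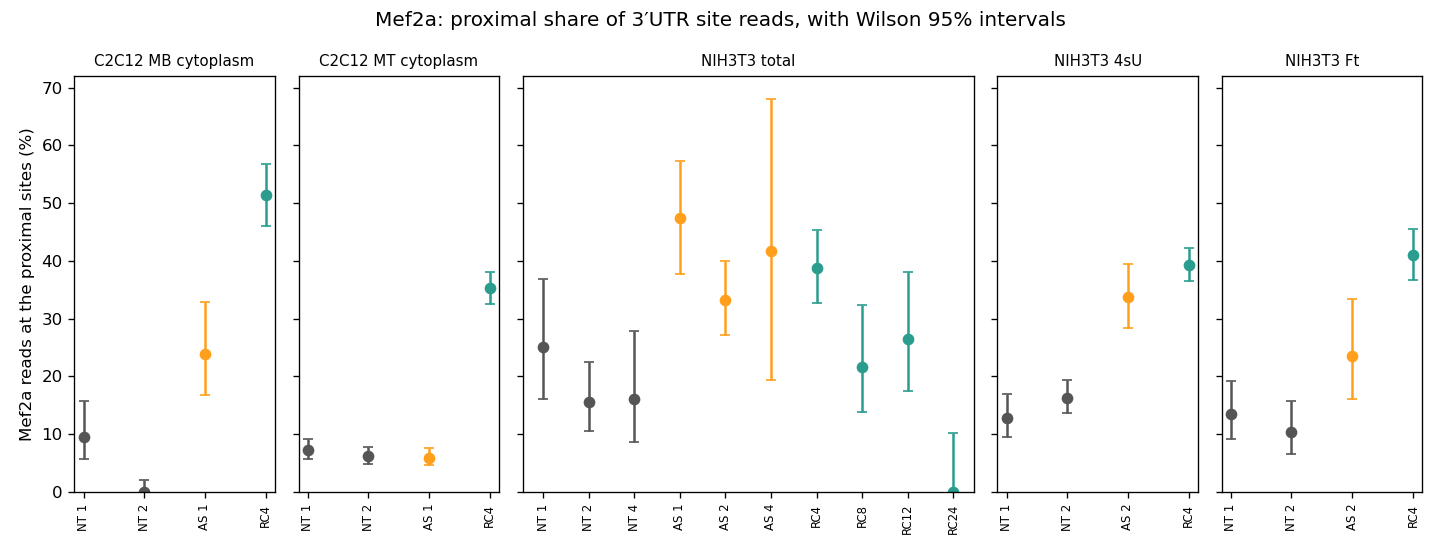
Share of Mef2a reads at the 6 proximal sites over proximal and distal sites (y axis, percent), by library, with Wilson 95% confidence intervals, for C2C12 cytoplasm and NIH3T3 total, 4sU and Ft RNA (NT grey, AS orange, RC green; numbers after NT and AS are replicate numbers, in C2C12 NT 1 is 0 h and NT 2 is 4 h). RC4 libraries sit between 35.2 and 51.4%, and the NT libraries plotted at 25.0% or below. Input and TIA1 libraries, of which the input NT libraries were at 29.5 and 30.8%, are not plotted.

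Mef2c used 2 main sites 735 nt apart. In MT total RNA the dPAS held 77.2% (75.4 to 78.9%) and 75.8% (74.0 to 77.5%) of reads, and in MT cytoplasm 59.3% (56.7 to 61.7%) and 62.6% (60.0 to 65.0%). In MT cytoplasm it held 68.1% (65.5 to 70.6%) after AS and 66.7% (63.2 to 70.0%) after RC4, both above the NT shares. With too few Mef2c reads in MB, no APA test was made. Mef2d had 96.55% of its C2C12 reads at 1 site and Id1 96.26%.

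In NIH3T3 cells Myod1, Myog and Myf5 were not listed in any library, and 6 of the 9 genes could be followed. None was called after AS in total RNA or input, where edgeR called 0% of 9984 and 0% of 8544 genes (20 and 150 genes at an unadjusted p under 0.05, and 0 and 24 genes by DESeq2). Of the members, Id3 in input was the only one at an unadjusted p under 0.05 (0.0401 by edgeR). With the replicate number as a block, edgeR called 6 and 68 genes and again no member. Id3 in total RNA was at 166, 125 and 189 normalized RPM in NT replicates 1, 2 and 4 and 333, 151 and 360 in the AS replicates (0.81 ± 0.47, SE, adjusted p 1, and 0.446 with the block). Id1 was at 147, 196 and 255 in NT and 229, 275 and 455 in AS (0.68 ± 0.45, adjusted p 1, and 0.313 with the block). In both genes each AS library was above the NT library of its number, and the share of all genes for which this held was not counted.

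Id2 stood apart by replicate number in NIH3T3, at 20.7 and 8.44 normalized RPM in NT replicates 1 and 2 and 93.8 in replicate 4, with AS at 19.5, 9.04 and 113. Recovery libraries, all of number 4, are therefore set beside NT replicate 4 only. Mef2a was at 26.0, 30.9 and 41.7 in NT replicates 1, 2 and 4 and 28.2, 38.8 and 11.4 (from 12 reads) in the AS replicates, so that AS was above NT in 2 pairs and below it in 1 (-0.31 ± 0.55, SE, edgeR adjusted p 1). It was at 153 at 4 h of recovery and 48.3, 44.4 and 34.4 at 8, 12 and 24 h. Mef2c was at 31.3 in NT replicate 4, 14.4 at 4 h and 31.3, 33.5 and 37.4 later. At 4 h, Id1 was at 149, Id2 at 45.9 and Id3 at 109, against 255, 93.8 and 189 in NT. The recovery values are single libraries with no test.

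Labelled RNA of NT cells was compared with flow-through RNA of the same sample, the sample being a block. Whether the NT samples, at 0 h and 4 h, came from separate cultures is not stated. The 4sU fraction is enriched in RNA made during the labelling hour, and the Ft fraction in RNA made earlier. Of the 6 members, 5 were lower in Ft and none was higher, where 58.1% of 9736 genes were called, 30.2% lower and 27.9% higher. Mef2c was the lowest, with log2 Ft/4sU of -1.39 and -2.33 in the NT samples (-1.86 ± 0.28, SE, adjusted p 2.89e-10). Mef2a was at -0.81 and -1.36 (-1.10 ± 0.16, adjusted p 1.09e-10) and Mef2d at -0.71 and -0.91 (-0.81 ± 0.20, adjusted p 9.9e-05). Id2 was at -0.90 and -0.64 (-0.77 ± 0.13, adjusted p 1.03e-08), Id1 at -0.68 and -0.28 (-0.48 ± 0.13, adjusted p 0.000587) and Id3 at -0.23 and 0.12 (-0.06 ± 0.12, adjusted p 0.686). The median of all genes was -0.03 under TMM and -0.25 under library totals, where Id3 too was lower (adjusted p 0.0258) and 3540 genes were lower and 2083 higher in place of 2939 and 2713. Labelling grows with the number of uridines in an RNA, for which these values were not adjusted.

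The labelled fraction also showed which levels differed under stress, with 1 library each for AS and RC4 and no test. Id3 in 4sU RNA was at 903 and 725 normalized RPM in NT samples, 1717 after AS and 203 after RC4. In Ft RNA it was at 770 and 785, then 1018 and 404. Id1 in 4sU RNA was at 394 and 341, then 666 and 136, and Id2 at 505 and 404, then 354 and 191. Id1 and Id3 were thus above NT after AS and below it after RC4, and Id2 was below NT at both times. Mef2a in 4sU RNA was at 125 and 151, then 148 and 298, and in Ft RNA at 71.4 and 58.7, then 38.01 and 228. Mef2c in 4sU RNA was at 32.6 and 42.0, then 22.4 and 15.4. Mef2a was thus above NT at RC4 in both fractions, and Mef2c was below NT at both times in 4sU RNA. In the same 4sU libraries the 5 markers of proliferating cells summed to 1107 and 1217 normalized RPM in NT, 1068 after AS and 132 after RC4, and the 5 fibroblast markers to 2759 and 3072, then 2205 and 994. Both sums were lowest at RC4, and their part in the members' values was not tested.

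**Figure D5:**
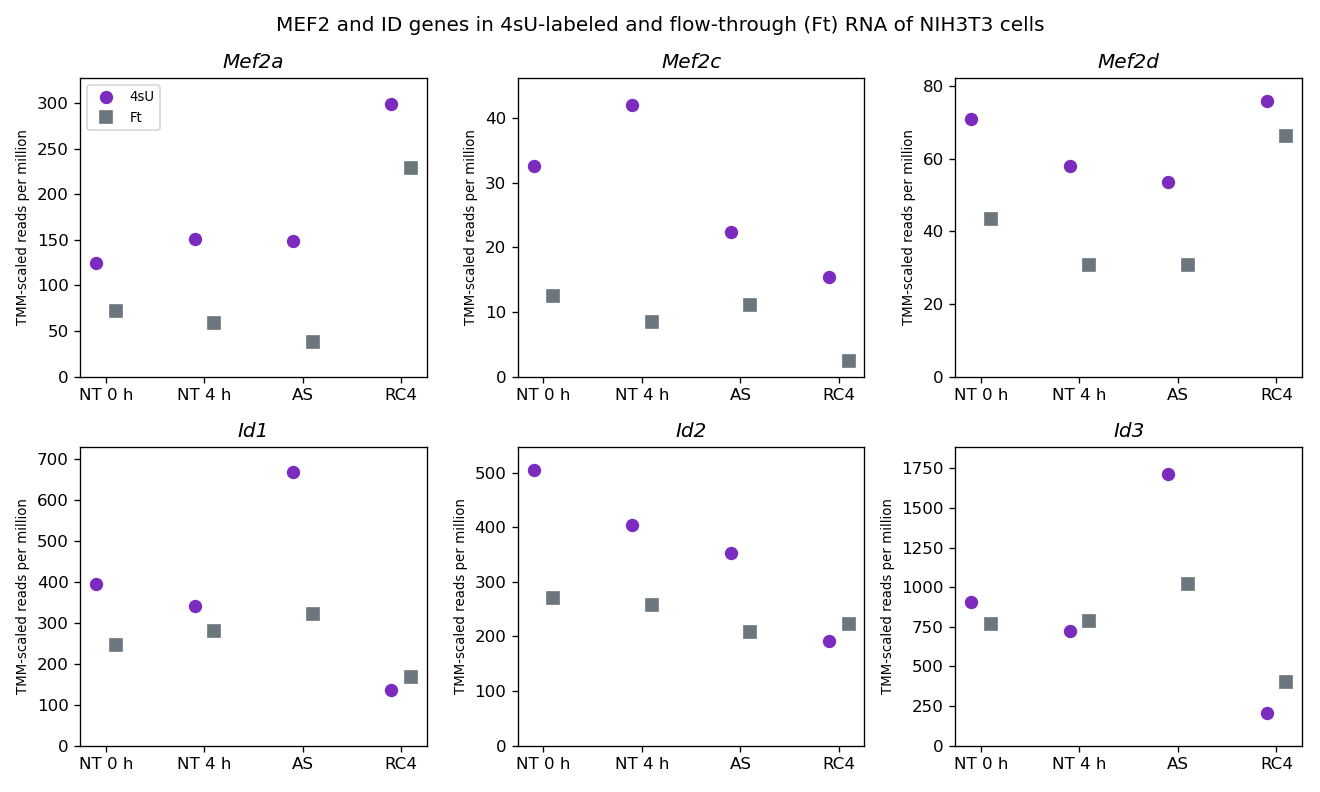
Normalized RPM (TMM-scaled reads per 1000000, y axis, separate scale per gene) of the MEF2 and ID genes in 4sU (circles) and Ft (squares) RNA of NIH3T3 cells, for NT at 0 h and 4 h, AS and RC4, with 1 point per library. Id3 in 4sU RNA goes from 903 and 725 in NT to 1717 after AS and 203 after RC4, and Mef2a is highest at RC4 in both fractions.

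TIA1, a stress granule protein that binds U-rich RNA, was immunoprecipitated from NIH3T3 cytoplasm. Among the 6 members, Mef2a and Mef2c were higher in the TIA1 fraction than in input, in NT and in AS cells, and Id3 was lower. In NT cells 18.4% of 9726 genes were called, 8.97% higher and 9.45% lower, and in AS cells 17.1% were called, 9.45% higher and 7.7% lower. With size factors by relative log expression, AS cells had 761 genes higher and 883 lower in place of 919 and 749. Log2 TIA1/input of Mef2a was 1.50 and 1.99 in NT cells (1.74 ± 0.38, SE, edgeR adjusted p 0.00685) and 1.13 and 1.97 in AS cells (1.54 ± 0.39, adjusted p 0.0167). For Mef2c it was 1.76 and 2.22 (1.99 ± 0.54, adjusted p 0.022) and 2.07 and 2.64 (2.37 ± 0.57, adjusted p 0.0121), from 11 to 24 input reads per library. For Id3 it was -1.13 and -0.85 (-0.995 ± 0.325, adjusted p 0.0495) and -2.24 and -1.90 (-2.07 ± 0.33, adjusted p 0.00154).

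These TIA1 calls rested on the pairing of TIA1 and input. Without the replicate block, the adjusted p was 0.0596 and 0.0877 for Mef2a, 0.202 and 0.152 for Mef2c and 0.222 and 0.0615 for Id3 in NT and AS cells. The NT call of Id3 was lost under 12 of 14 alternatives, and those of Mef2a and Mef2c in NT cells without NT input replicate 2 or NT TIA1 replicate 2, where 970 and 870 genes were called in place of 1791. The NT call of Mef2c was lost without AS TIA1 replicate 2 as well (edgeR adjusted p 0.0823). In AS cells, leaving out any of the 4 AS libraries ended the calls of Mef2a and Mef2c, and that of Id3 ended in each case but input replicate 2. Then 238 genes were called without AS input replicate 1, 429 without AS input replicate 2, 17 without AS TIA1 replicate 1 and 127 without AS TIA1 replicate 2, in place of 1668. The directions of these 3 genes were kept in all of these. Whether binding differed between AS and NT was not tested.

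Up to their main PAS, the 3′UTRs of Mef2a and Mef2c were 3706 and 4450 nt long, beyond 94.4 and 96.7% of 9491 genes, whose median was 757 nt. That of Id3 was 534 nt, with 25.8% uridine against a median of 29.2%, and those of Mef2a and Mef2c had 31.9 and 33.1%. Mef2d (1581 nt, 27.1%), Id1 (400 nt, 29.3%) and Id2 (788 nt, 35.0%) were not called in the TIA1 fraction. Thus the members called higher had the longest 3′UTRs of the 6, while Id2 had the highest uridine share. The 3′UTRs of Myod1, Myog and Myf5, not listed in NIH3T3, were 708, 758 and 1100 nt long, with 27.7, 28.9 and 37.8% uridine.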

How the data were processed

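Per the labels and methods, the authors removed adapters (Cutadapt), aligned 3′READS reads to mm9 (bowtie2), required MAPQ of 10 or more plus 2 or more nongenomic Ts, and merged cleavage positions up to 24 nt apart. They deposited the raw count of reads for every cluster, and for RNA-seq (STAR) the raw count on coding sequences. The cluster tables list no value under 5. Replicates were not pooled.

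The 99725 positions were joined across libraries into 83916 clusters and assigned to GENCODE M1 genes, leaving 832 ambiguous. Gene counts were summed over PASs and filtered at 10 reads in at least 2 libraries. edgeR 4.0.16 (TMM, quasi-likelihood) was the main tool and DESeq2 1.42.0 an alternative, in R 4.3.3. The edgeR and APA steps were tested on simulated data. AS and RC4 in C2C12 were fitted on all 8 cytoplasmic libraries with state as a term, TIA1 on its 8 libraries with the sample as a block, and the other comparisons on their own libraries. Other alternatives were relative log expression factors, library totals (added after the data were seen), no filter, PASs of the last exon only, time-matched controls, each library left out and the replicate block. For APA they were over 20 reads, over 10 points, the outermost PASs, single pairs and time-matched controls (added after the data were seen). The outermost PASs were taken among those with at least 10% of the gene's reads in the cell line. NIH3T3 total libraries of the same number deviated together from their group means (r 0.9 to 0.913), so these numbers pair them. Likeness used a pseudocount of 0.5 and genes with a mean of at least 10 normalized RPM. Up to 3 genes per list, those with the largest called change in total RNA, were named.

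The 9 genes and the lists were chosen with earlier results of these data known.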

Additional observations from a re-analysis of the deposited data

Results flagged for a closer look

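RNA-seq of NIH3T3 cells, which no test here used, held signal above both untreated libraries for 3 of the genes, in reads per 1000000 on the coding sequence. Mef2a was at 42.6 and 41.1 in the untreated libraries, 54.8 after AS and 104 after RC4. Mef2c was at 1.74 and 1.87, then 4.48 after AS and 2.18 after RC4, from 33 and 32, then 102 and 55 reads. Id3 was at 65.8 and 36.3 in the untreated libraries and 97.6 after AS, and at 13.7 after RC4, below both untreated libraries. Other members were lower. Id2 was at 32.0 and 24.6, then 17.6 after AS and 18.7 after RC4. Id1 was at 22.4 and 15.2, then 17.4 and 11.1, and Mef2d at 40.3 and 28.1, then 32.4 and 26.9. Both were thus below the untreated libraries after RC4 only. The share of all genes above or below both untreated libraries was not counted. There was 1 AS and 1 RC4 library, so these differences were not tested.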

How the results depend on the processing

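Limits. AS and RC4 in C2C12 rest on 1 library per state, and comparisons of 4 to 8 libraries leave wide errors. Genes with few reads (Myf5, Myod1, Mef2c in MB and in NIH3T3 input) are the least precise. Reads without molecular identifiers give intervals and Fisher's exact p-values for counting error only. In all, 100 pairs of gene and comparison gave 1006 values under alternatives, of which 899 kept direction and side of the threshold, 46 lost a call, 12 gained 1 and 49 turned direction, 42 of them on leaving out a library or pair. The cause of these changes was not tested. Leaving out a library could not be fitted for Ft against 4sU, nor for the state difference without an AS or RC4 library.

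Numbers of genes called in each comparison changed as follows. After AS in C2C12 it was 44 and became 28 with library totals (chosen after seeing the data), 199 with DESeq2 (150 higher and 49 lower) and 27 with time-matched controls. After RC4 it was 834 and became 505 with time-matched controls. The state difference, 0 in the main analysis, gave 1 for AS and 12 for RC4 with DESeq2. NIH3T3 input gave 24 with DESeq2 and 3 with no filter, in place of 0. For APA, asking for over 10 points gave 239 genes in place of 390 (MT against MB total), 47 in place of 82 (AS in C2C12, or 38 genes with time-matched controls, chosen after seeing the data) and 35 in place of 96 (NIH3T3). Asking for over 20 reads gave 94 in place of 159 (cytoplasm) and 164 in place of 303 (RC4), and asking for all 3 NIH3T3 pairs gave 4.

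With the replicate number as a block, edgeR called 6 genes after AS in NIH3T3 total RNA and 68 in input, against 0 in each without it, and Id1 in input turned from 0.013 to -0.078. Without the replicate block, TIA1 gave 310 genes in NT and 79 in AS cells, against 1791 and 1668. In MT against MB the numbers share no more than a label (r 0.07 in total RNA, 0.224 by time in cytoplasm), and the block gave 6370 and 2331 genes, against 6226 and 2377. It changed no call of the 9 genes there. Ft against 4sU gave 4794 genes without the replicate block, against 5652.

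Other turned directions were those of Myod1, at 0.014 after AS with time-matched controls and 0.037 after RC4 with DESeq2, and of Id1 in input at -0.004 with last-exon sites only. The Mef2a RED with the outermost sites turned as well, at 0.86 in MT against MB cytoplasm (called, from not called) and -1.14 after AS in NIH3T3. These sites differed between the cell lines. In C2C12 they lay 148 nt apart at the distal end. In NIH3T3 the upstream one was the main proximal site (17.21% of reads), 2273 nt from the last distal site. The mean RED of Id2 after AS in C2C12 was 0.026 with time-matched controls.

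Leaving out 1 library gave 900 to 3859 genes for MT against MB in cytoplasm, 5 to 51 after AS, 326 to 814 after RC4, 0 to 14 for AS by state, 0 to 151 for RC4 by state, 0 to 2 for NIH3T3 input, 870 to 1570 for TIA1 in NT cells and 17 to 2113 in AS cells. For APA, single pairs gave 774 to 777 (total), 355 to 579 (cytoplasm), 507 to 642 (AS), 708 to 726 (RC4) and 484 to 588 (NIH3T3).

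On leaving out 1 library, these log2 differences, none of which was called in the main analysis, took both signs. After AS in C2C12 they were Myod1 -0.35 to 0.049 and Myog -0.13 to 0.50. After RC4 in C2C12 they were Myod1 -1.12 to 0.87, Myog -0.62 to 0.14 and Id3 -0.80 to 0.31. For the AS difference between states they were Mef2c -0.38 to 6.68, Mef2d -0.20 to 0.36 and Id3 -0.20 to 0.46. For the RC4 difference between states they were Mef2c -0.99 to 6.07 and Id2 -0.29 to 0.32. After AS in NIH3T3 total RNA they were Mef2a -0.71 to 0.027, Mef2c -0.22 to 0.24, Mef2d -0.10 to 0.34 and Id2 -1.52 to 1.69. After AS in NIH3T3 input they were Mef2c -1.29 to 0.36, Mef2d -0.46 to 0.43 and Id1 -0.62 to 0.45. For TIA1 in NT cells they were Id1 -0.80 to 0.095. For TIA1 in AS cells they were Id1 -0.80 to 0.19. The RED of single pairs took both signs as well. For MT against MB in total RNA it was Id2 -0.47 to 0.23 and Id3 -0.12 to 0.37. For MT against MB in cytoplasm it was Id2 -1.38 to 0.044 and Id3 -0.078 to 0.40. After AS in C2C12 it was Mef2a -0.52 to 0.12 and Id2 -1.44 to 0.10. After RC4 in C2C12 it was Mef2a -0.52 to 0.11. After AS in NIH3T3 it was Id1 -0.71 to 1.03.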
